A study of Mus musculus with 15 samples.

Results

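The 10 genes described here are the growth hormone and IGF1 axis of the liver together with Bcl6, out of 19464 gene rows measured by RNA-seq. They were chosen by symbol (Ghr, Igf1, Igfals, Igfbp1, Igfbp2, Igfbp3, Socs2, Cish, Bcl6 and Stat5b), from a list drawn up with earlier results of these data known. Where a symbol had several rows, the row was to be selected on its total reads over the 15 libraries, but each symbol had 1 row only, and all 10 passed the filter on low counts in every comparison.

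The livers came from 2-week-old Stab1-/- mice (n = 4), 2-week-old wildtype mice (n = 4), Stab1-/- fetuses at E17.5 (n = 3) and wildtype fetuses at E17.5 (n = 4). Both genotypes carried the mixed C57BL/6N;129SvJ background. The knockout removes Stab1, which encodes the scavenger receptor Clever-1, from all cells, so the genotype does not single out a liver cell type. The labels do not give the sex of the mice or say how many animals went into a library. Each library held 9659 to 10964 uniquely mapped reads on genes in units of 1000 reads. Levels are given as RPKM, reads per kilobase of gene length per 1000000 reads.

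Growth hormone from the pituitary binds its receptor GHR on hepatocytes and, through the kinase JAK2, activates the transcription factor STAT5B. STAT5B switches on Igf1, the main circulating growth factor made by liver, and Igfals, whose product holds IGF1 in a ternary complex with IGFBP3 in blood. It also switches on Cish and Socs2, which feed back to dampen receptor signalling, and it represses Bcl6, itself a transcriptional repressor that can occupy the same DNA sites as STAT5.

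Promoter sequence bears on these genes because STAT5 recognises TTCNNNGAA. The RefSeq promoter table (GRCm38.p6) matched 9 of the 10 genes with 15 start sites, and the 250 bases before each start were searched on both strands. TTCNNNGAA was found in 4 of the 15 windows and in 7.01% of 32817 promoter windows of the same length. The Bcl6 windows are shown because they hold the motif most often, with the matches in capitals. The window at the distal start (chr16:23988853-23989102, minus strand) had 1 match beginning 118 bases before the start.
Bcl6 distal start: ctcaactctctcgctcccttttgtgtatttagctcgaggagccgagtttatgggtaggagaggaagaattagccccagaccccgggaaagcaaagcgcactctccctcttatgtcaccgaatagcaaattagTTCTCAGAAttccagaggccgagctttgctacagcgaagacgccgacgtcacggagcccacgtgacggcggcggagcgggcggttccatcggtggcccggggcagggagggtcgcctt
The window at the internal start (chr16:23981284-23981533, minus strand) had 3 matches, beginning 168, 122 and 88 bases before the start. As many as 3 matches occurred in 9 windows, 0.0274% of all.
Bcl6 internal start: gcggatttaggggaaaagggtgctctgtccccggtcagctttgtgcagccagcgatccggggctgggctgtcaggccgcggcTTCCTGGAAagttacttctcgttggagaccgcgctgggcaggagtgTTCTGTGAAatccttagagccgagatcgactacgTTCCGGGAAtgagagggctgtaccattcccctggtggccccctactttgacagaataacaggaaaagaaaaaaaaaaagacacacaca
The remaining matches lay in windows of Igfals (chr17:24877594-24877843 and chr17:24877981-24878230, plus strand). Cish is shown as a window that did not hold these letters (chr9:107296409-107296658, plus strand). In the GENCODE vM21 annotation Cish begins at 107296026, so this window lies inside the gene. The windows of Igfals and Igf1 likewise lie inside their genes, which begin at 24865997 and 87858265. Bases before these outer starts were not searched.
Cish: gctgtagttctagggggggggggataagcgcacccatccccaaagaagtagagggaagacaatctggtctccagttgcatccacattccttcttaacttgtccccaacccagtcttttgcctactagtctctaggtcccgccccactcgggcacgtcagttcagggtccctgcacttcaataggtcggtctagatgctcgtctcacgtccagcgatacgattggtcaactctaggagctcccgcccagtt
Igfbp1 is shown for another motif, CAAAACA (capitals), the core of insulin response elements, which began 108 bases before its start (chr11:7197537-7197786, plus strand). CAAAACA was present in 5.56% of all windows and in 1 of the 15, and the forkhead motif TGTTTAC was present in 3.16% of all and in 1 of the 15, a window of Igfals.
Igfbp1: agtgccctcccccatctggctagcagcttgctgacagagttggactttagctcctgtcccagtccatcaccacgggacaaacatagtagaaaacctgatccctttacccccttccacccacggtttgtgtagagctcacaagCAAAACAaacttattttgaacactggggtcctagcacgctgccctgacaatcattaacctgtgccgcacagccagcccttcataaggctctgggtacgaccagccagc
These matches are letters in a window and do not show binding.

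In the GENCODE vM21 annotation of GRCm38, used here only to place the genes, Bcl6 lies on chromosome 16 from 23965052 to 23988852 and Cish on chromosome 9 from 107296026 to 107302784. Igf1 lies on chromosome 10 from 87858265 to 87937042, and Igfbp1 and Igfbp3 are neighbours on chromosome 11, from 7197782 to 7202546 and from 7206086 to 7213923. Igfals lies on chromosome 17 from 24865997 to 24882010. Bcl6 overlaps Gm37419 on the opposite strand, Cish overlaps Gm17040 and Gm17041, and Igf1 overlaps its antisense gene Igf1os. Whether reads were counted by strand is not given in the sources used here, so reads of these partners cannot be told apart from those of Bcl6, Cish and Igf1. The same holds for Stab1, which overlaps Nt5dc2 on the opposite strand.

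Stab1 itself was checked first. It averaged 1.09 ± 0.31 RPKM in 2-week knockout livers and 9.29 ± 1.54 RPKM in 2-week wildtype livers (SD, n = 4 each), and at E17.5 it averaged 4.37 ± 0.82 RPKM (n = 3) and 17.2 ± 3.17 RPKM (n = 4). The log2 fold change was -3.19 at 2 weeks (edgeR adjusted p = 5.15e-06) and -1.91 at E17.5 (edgeR adjusted p = 0.00101), and no knockout library reached the range of its wildtype group. Reads of Xist were at 8554 to 19611 in every 2-week library, in which the 4 Y-linked genes Ddx3y, Eif2s3y, Kdm5d and Uty summed to at most 2 reads. All the E17.5 libraries held reads of both kinds, with Y-linked sums of 13 to 2448 and Xist at 119 to 22419 reads. The extremes fell in single libraries. Knockout replicate 3 held 22419 Xist reads beside a Y-linked sum of 13, and wildtype replicate 4 held 119 beside 2448.

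Bcl6 and Cish were the members that differed between genotypes at 2 weeks. Bcl6 was 4.93-fold higher and Cish was at 39.9% of the wildtype level in Stab1-/- livers, so the genes moved in opposite directions. The growth hormone receptor, Igf1, its carriers, Socs2 and Stat5b did not pass the test. In total 2 of the 10 genes were called at an edgeR adjusted p under 0.05, against 2.67% of the 12716 genes tested.

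Bcl6 in 2-week Stab1-/- livers was 11.1, 14.9, 3.95 and 3.92 RPKM in replicates 1 to 4. In wildtype livers it was 1.92, 1.82, 1.47 and 1.66 RPKM. Every knockout library was above every wildtype library, and within the knockouts replicates 1 and 2 stood well above replicates 3 and 4. These levels rest on 127 to 524 reads per knockout library and 52 to 67 reads per wildtype library, and reads covered 77.8% to 97.7% of the gene model in knockouts and 50.03% to 60.3% in wildtypes. The log2 fold change was 2.21 with a standard error of 0.39 (edgeR adjusted p = 0.0144; two-sided exact permutation test of mean RPKM, p = 0.0286, the smallest that 4 against 4 allows). Among genes higher in knockout, 0.936% of all tested genes were called, and Bcl6 held rank 11 of 12716 by log2 fold change. The study's own list of genes significantly higher in 2-week knockouts, drawn from these same libraries, already holds Bcl6. Leaving out any 1 library left the log2 fold change between 1.78 and 2.45 with the call kept, whereas limma on log2(RPKM + 1) gave 1.61 with an adjusted p of 0.0536.

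Cish, a SOCS family inhibitor of STAT5 signalling, was 4.36, 3.24, 6.18 and 10.7 RPKM in the 2-week knockout replicates. It was 19.7, 15.5, 13.9 and 12.3 RPKM in the wildtype replicates. The highest knockout library, replicate 4, stayed below the lowest wildtype library, so the groups did not overlap. The log2 fold change was -1.40 with a standard error of 0.30 (edgeR adjusted p = 0.0323; exact permutation p = 0.0286), and 1.74% of all tested genes were called lower. This call depended on single libraries: the edgeR adjusted p was 0.109, 0.0766 and 0.0803 without knockout replicate 1, 2 or 3, and 0.061 and 0.0653 without wildtype replicate 1 or 3, while the log2 fold change stayed between -1.86 and -1.18. With limma it was 0.0546 at a pseudocount of 0.1 and 0.0515 at a pseudocount of 1.

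**Figure D1:**
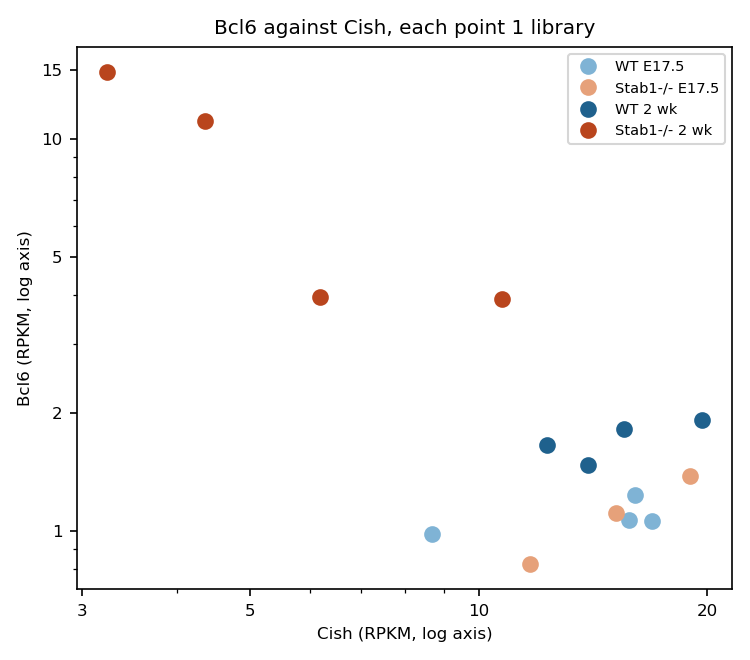
Bcl6 against Cish in RPKM, both on log axes, with each point 1 library coloured by genotype and age. The 4 Stab1-/- 2-week libraries lie apart at the upper left, with Bcl6 from 3.92 to 14.9 RPKM and Cish from 3.24 to 10.7 RPKM, and the other 11 libraries have Bcl6 at or below 1.92 RPKM.

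The ratio of Bcl6 to Cish joined both differences in each liver. It was 2.55, 4.60, 0.640 and 0.365 in the 2-week knockout replicates and 0.0976 to 0.135 in the 2-week wildtype libraries. At E17.5 it was 0.0703 to 0.0734 in knockouts and 0.0627 to 0.113 in wildtypes. Knockout replicates 1 and 2, the highest in Bcl6, were also the lowest in Cish, as the plot of one gene against the other shows, but 4 libraries are too few for a correlation.

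Socs2, the other feedback inhibitor of the set, did not separate the genotypes. It was 80.2, 23.4, 20.6 and 45.7 RPKM in 2-week knockouts and 30.0, 51.9, 61.6 and 12.9 RPKM in 2-week wildtypes. Both groups spread widely and overlapped, with the highest library 3.88 times the lowest in knockouts and 4.77 times in wildtypes. The log2 fold change was 0.02, with an interval of 2 standard errors from -0.90 to 0.95 (edgeR adjusted p = 0.982). That interval left out the estimates for both Bcl6 and Cish. It lay below the interval for Bcl6, from 1.42 to 2.99, but overlapped the interval for Cish, from -2.0 to -0.80. The sign for Socs2 turned when knockout replicate 1 or 4, or wildtype replicate 1 or 4, was left out, with values between -0.44 and 0.36 over all such fits.

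Upstream, the receptor and the transcription factor were close between genotypes. Ghr was 136, 103, 118 and 114 RPKM in 2-week knockouts and 95.3, 119, 101 and 107 RPKM in wildtypes, overlapping, with a log2 fold change of 0.06 and an interval from -0.16 to 0.28. Stat5b was 17.9, 20.7, 18.8 and 19.7 RPKM in knockouts and 26.2, 16.7, 18.9 and 19.2 RPKM in wildtypes. Its groups overlapped as well, with a log2 fold change of -0.16 and an interval from -0.42 to 0.10. The edgeR adjusted p was 0.776 for Ghr and 0.493 for Stat5b.

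Igf1, the secreted growth factor, was 262, 169, 191 and 188 RPKM in 2-week knockouts. It was 154, 210, 138 and 112 RPKM in wildtypes. Only wildtype replicate 2 lay within the knockout range, and the log2 fold change of 0.31 with a standard error of 0.17 did not pass the test (edgeR adjusted p = 0.302). Igfals, the acid labile subunit that retains IGF1 in blood, went numerically the other way: 54.9, 53.3, 51.4 and 65.3 RPKM in knockouts against 65.3, 90.2, 61.9 and 87.1 RPKM in wildtypes. Knockout replicate 4 exceeded wildtype replicate 3, so the groups overlapped, and the log2 fold change of -0.52 with a standard error of 0.15 missed the threshold (edgeR adjusted p = 0.0779) but passed it with DESeq2 (adjusted p = 0.0289). The ratio of Igf1 to Igfals, looked at after the values were seen, was 2.88 to 4.78 in 2-week knockouts and 1.29 to 2.36 in wildtypes.

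The binding proteins did not pass the test at 2 weeks. Igfbp2, the most abundant transcript of the set at this age, was 693, 1371, 978 and 1088 RPKM in knockouts and 1454, 1014, 1409 and 741 RPKM in wildtypes, overlapping, with a log2 fold change of -0.24 and an interval from -0.71 to 0.23. Igfbp3, the main IGF carrier of serum, was 51.2 to 62.8 RPKM in knockouts and 51.3 to 60.9 RPKM in wildtypes, with a log2 fold change of -0.08 and an interval from -0.30 to 0.15. Igfbp1, a binding protein that insulin suppresses and fasting raises, was 138, 158, 195 and 90.9 RPKM in knockouts and 191, 131, 586 and 84.9 RPKM in wildtypes. A single wildtype library, replicate 3, decided the Igfbp1 value: the log2 fold change was -0.88 with all libraries (edgeR adjusted p = 0.289) and 0.03 without it.

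**Figure D2:**
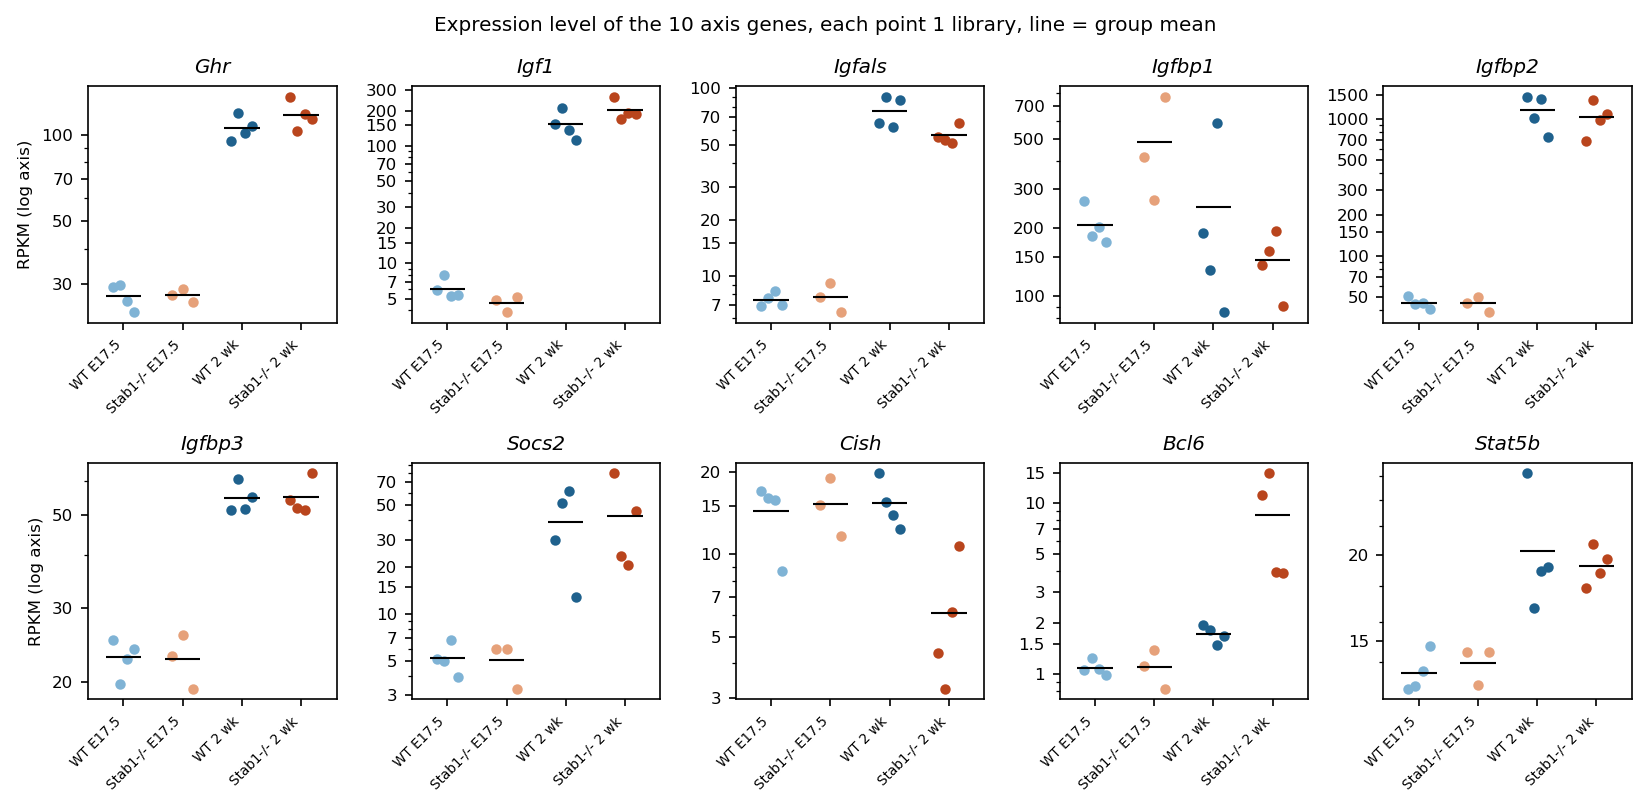
RPKM (log axis) of the 10 genes in each of the 15 libraries, with a line at each group mean. In 2-week livers the knockout points for Bcl6 lie above and those for Cish below all wildtype points, and for 7 of the remaining 8 genes every 2-week library is above every E17.5 library, the exception being Igfbp1.

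Across the set, 2 of 10 genes did not overlap between genotypes at 2 weeks, against 14.9% of all tested genes, and the median log2 fold change was -0.117 for the 10 genes and -0.013 for all genes. Summed RPKM of 7 stellate and mesenchymal markers was 99.4 to 125 in 2-week knockouts and 150 to 211 in wildtypes. Of the 7, 4 were called lower, against 1.74% of all tested genes. Summed RPKM of 8 granulocyte markers was 190 to 422 in knockouts and 31.9 to 148 in wildtypes, with 0 of 7 tested markers called. The 10 hepatocyte markers summed to 88700 to 112000 and 113300 to 138900, with 0 of 10 called and a median log2 fold change of -0.28. Alb and Ahsg, at 57000 and 23590 RPKM on average in wildtypes, weigh most in that sum. Apob, named after its value was seen, went the other way, averaging 438 RPKM in knockouts and 352 RPKM in wildtypes. Summed RPKM of 7 endothelial markers was 74.1 to 85.7 in knockouts and 77.8 to 94.6 in wildtypes, with 1 of the 7 called lower, Kdr (log2 fold change -0.43, edgeR adjusted p = 0.0476), named after its value was seen. No marker gene lacked reads in a whole group. The part of these markers in the 2-week differences was not tested, and in whole liver fewer cells of a type and less RNA per cell cannot be told apart.

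At E17.5 none of the 10 genes was called between genotypes by edgeR, against 0.366% of the 13388 genes tested. At an unadjusted p under 0.05 the count was 1, and DESeq2 and limma each gave 0. Of the set, 2 genes did not overlap between the groups, compared with 12.2% of all tested genes, and the median log2 fold change was 0.08 for the set and 0.00 for all genes. These were Igfbp1 and Igf1, and with 3 against 4 libraries the smallest exact permutation p is 0.0571.

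Igfbp1 was 415, 268 and 769 RPKM in E17.5 knockouts. It was 264, 185, 204 and 175 RPKM in wildtypes. The lowest knockout library and the highest wildtype library almost touched, and the mean was 2.34-fold higher in knockouts (log2 fold change 1.28, standard error 0.29, edgeR adjusted p = 0.134; exact permutation p = 0.0571). Without knockout replicate 3, the highest library, the log2 fold change was 0.78. That library also held the fewest Y-linked and the most Xist reads at E17.5. The part of this in its Igfbp1 value was not tested. The study's own list of genes higher in E17.5 knockouts, drawn from these same libraries, already holds Igfbp1.

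Igf1 was 4.83, 3.84 and 5.18 RPKM in E17.5 knockouts and 5.88, 7.93, 5.25 and 5.36 RPKM in wildtypes. The log2 fold change was -0.34 with a standard error of 0.16 (edgeR adjusted p = 0.389; exact permutation p = 0.0571). Bcl6 was 1.11, 1.38 and 0.82 RPKM in fetal knockouts and 1.06, 1.24, 1.07 and 0.98 RPKM in wildtypes, on 29 to 48 reads per library, and its log2 fold change was 0.09 with an interval from -0.37 to 0.54. All fetal Bcl6 values lay below those of the 2-week knockouts.

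Cish was 15.2, 19.0 and 11.7 RPKM in fetal knockouts and 16.9, 16.1, 15.8 and 8.69 RPKM in wildtypes, overlapping, with a log2 fold change of 0.15 and an interval from -0.33 to 0.63. Of the remaining 6 genes, the log2 fold changes at E17.5 ran from 0.02 for Socs2 to 0.12 for Igfals, and all of their groups overlapped. For Ghr the fetal range was 24.0 to 29.8 RPKM over both genotypes and for Stat5b it was 12.8 to 14.8 RPKM. The granulocyte sum was 3708 to 4018 RPKM in fetal knockouts and 5243 to 8435 RPKM in fetal wildtypes, with 0 of 8 markers called. Fetal knockout replicate 1 stood apart in 2 other marker sums. Its 4 cholangiocyte markers summed to 80.6 RPKM, against 5.66 and 11.4 RPKM in the other fetal knockouts and 7.15 to 11.04 RPKM in wildtypes, with 0 of 4 called. Its 7 stellate and mesenchymal markers summed to 212 RPKM, against 81.2 and 110 RPKM in the other fetal knockouts and 114 to 145 RPKM in wildtypes, with 0 of 7 called. The study's list of genes higher in E17.5 knockouts holds Epcam and Krt19 beside genes of intestine and smooth muscle. Which libraries carried those genes was not examined, so the cell types behind the 2 sums were not tested. Without fetal knockout replicate 1 the log2 fold change at E17.5 was 1.39 for Igfbp1 and -0.36 for Igf1. The part of these markers in the fetal values was not tested.

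**Figure D3:**
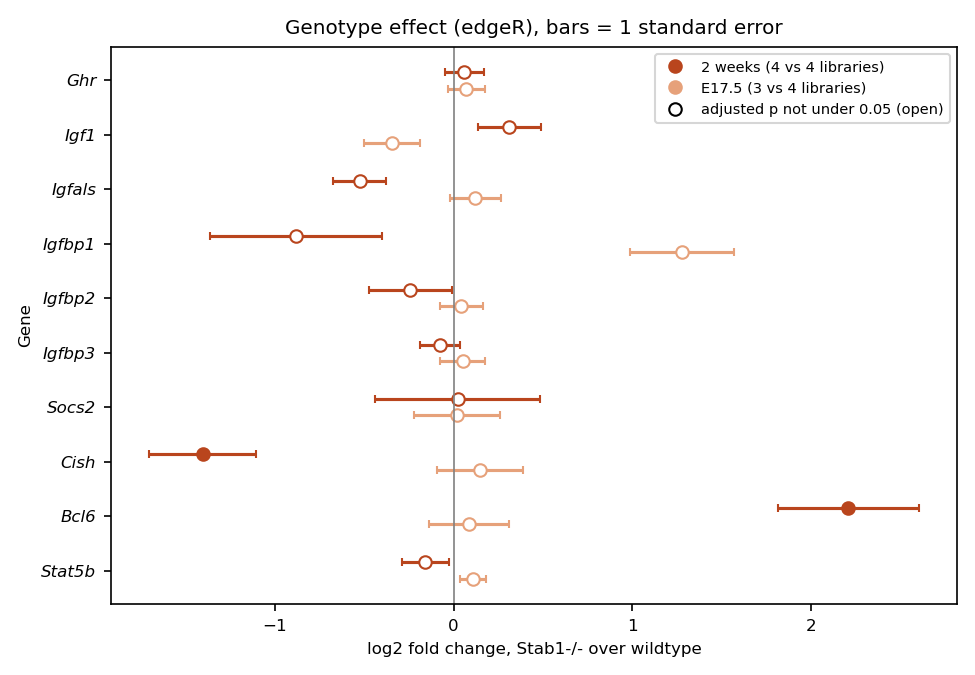
Genotype effect for each gene as log2 fold change of Stab1-/- over wildtype, at 2 weeks (dark) and E17.5 (light), with bars of 1 standard error and filled points for edgeR adjusted p under 0.05. The filled points are Bcl6 at 2.21 and Cish at -1.40, both at 2 weeks, while Igfbp1 at E17.5 lies at 1.28 with an open point.

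The genotype effects at the 2 ages were compared directly with an interaction term over all 15 libraries, since a call at 1 age alone does not show that the ages differ. None of the 10 genes was called by edgeR, against 1.81% of 13885 genes tested. At an unadjusted p under 0.05 there were 5, DESeq2 called 2 and limma 0. The effect at E17.5 minus that at 2 weeks was -2.15 for Bcl6 (edgeR adjusted p = 0.0587), 1.52 for Cish (0.0724) and 2.12 for Igfbp1 (0.0876). It was 0.61 for Igfals (0.126) and -0.69 for Igf1 (0.137). With DESeq2 the adjusted p was 0.0049 for Bcl6 and 0.0176 for Cish. Single libraries moved the edgeR call: Bcl6 passed without 2-week knockout replicate 3 (adjusted p = 0.0362) or 4 (0.0375), Cish without 2-week knockout replicate 4 (0.0249) and Igf1 without 2-week wildtype replicate 2 (0.0481).

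Between E17.5 and 2 weeks the axis rose steeply in wildtype liver. Of the 10 genes 8 were called higher at 2 weeks and 0 lower by edgeR, against 34.9% and 37% of the 13369 genes tested. The median log2 fold change was 1.97 for the set and -0.01 for all genes. The largest rises were those of Igfbp2 and Igf1, at 25.5-fold and 25.2-fold of the mean RPKM.

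In wildtype liver the log2 fold change from E17.5 to 2 weeks was 5.03 for Igfbp2 and 5.01 for Igf1 (edgeR adjusted p = 1.26e-09 and 9.2e-10). Igf1 went from 5.25 to 7.93 RPKM in fetal libraries to 112 to 210 RPKM at 2 weeks, and Igfbp2 from 41.0 to 50.9 RPKM to 741 to 1454 RPKM. The partner Igfals rose by 3.71 on the log2 scale and the feedback inhibitor Socs2 by 3.26. Ghr, the receptor, rose by 2.32, from a mean of 27.3 RPKM to 106 RPKM, and Igfbp3 by 1.62. Bcl6 and Stat5b had smaller log2 rises of 1.02 and 0.94. For these 8 genes no 2-week library overlapped a fetal one.

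Cish and Igfbp1 did not follow. Cish averaged 15.4 ± 3.18 RPKM at 2 weeks and 14.4 ± 3.82 RPKM at E17.5 in wildtypes (SD, n = 4 each), with a log2 fold change of 0.45 (edgeR adjusted p = 0.0567, passing the threshold in 7 of 17 alternatives). Igfbp1 averaged 248 ± 229 RPKM and 207 ± 39.9 RPKM, with a log2 fold change of 0.63 (edgeR adjusted p = 0.243) that became -0.26 without 2-week wildtype replicate 3 and -0.12 with limma on RPKM. With limma on log2(RPKM + 0.1), which differed from edgeR in tool, scaling and filter, the median of all genes was -0.39 and 30.9% of called genes were higher instead of 48.5%, and the same 8 members were called higher.

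**Figure D4:**
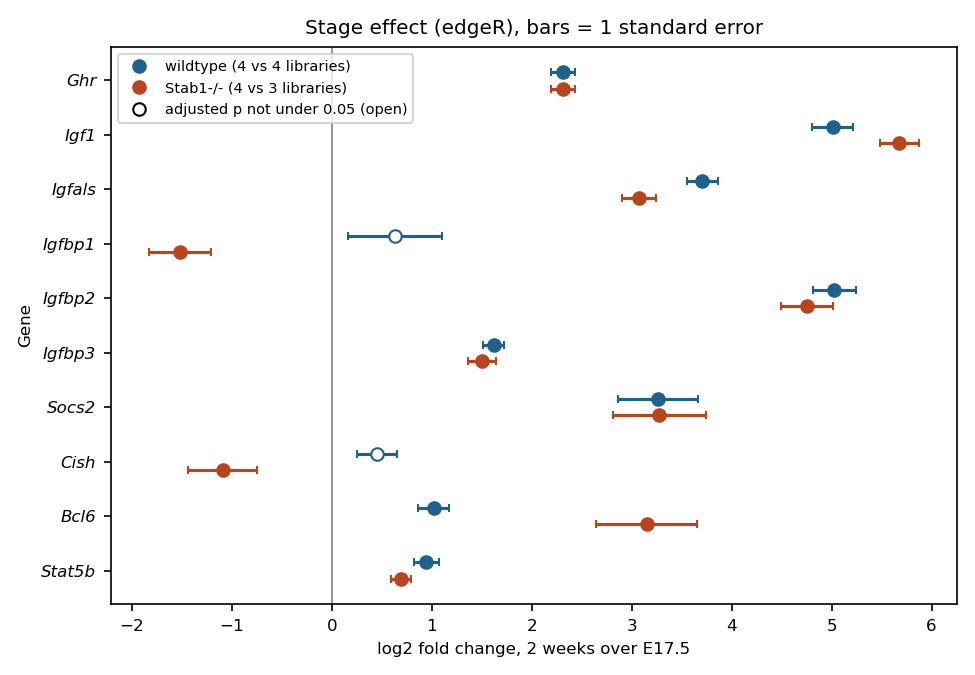
Stage effect for each gene as log2 fold change of 2 weeks over E17.5 in wildtype (blue) and Stab1-/- (red) livers, with bars of 1 standard error and open points for edgeR adjusted p not under 0.05. Igf1, Igfbp2, Igfals, Socs2, Ghr, Igfbp3, Stat5b and Bcl6 lie to the right of 0 in both genotypes, while Cish and Igfbp1 lie at -1.09 and -1.52 in Stab1-/- livers.

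In Stab1-/- liver the same 8 genes were called higher at 2 weeks, and Cish and Igfbp1 were called lower. Of the 13433 genes tested, 35.7% were called higher and 36.8% lower, and the median log2 fold change was 2.69 for the set and -0.01 for all genes. Igf1 rose by 5.68 and Igfbp2 by 4.75 on the log2 scale. Bcl6 rose by 3.15 (standard error 0.50, edgeR adjusted p = 0.000182), a 7.67-fold difference of means compared with 1.58-fold in wildtypes. Cish fell by 1.09 (edgeR adjusted p = 0.014), and this call was lost without fetal knockout replicate 2 (adjusted p = 0.0678). Igfbp1 fell by 1.52 (edgeR adjusted p = 0.00109), from 268 to 769 RPKM in fetal libraries to 90.9 to 195 RPKM at 2 weeks.

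The cell makeup of the liver changed over the same interval. Summed RPKM of 8 erythroid markers was 1774 to 2732 in fetal libraries and 27.0 to 53.9 at 2 weeks, and all 8 erythroid and all 8 granulocyte markers were called lower at 2 weeks in both genotypes. The 10 hepatocyte markers had a median log2 fold change of 0.93 in wildtypes and 0.57 in knockouts. The part of cell makeup in the rises was not tested.

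The order of levels within the set, per kilobase of gene length, turned over between the stages. In fetal livers Igfbp1 came first, at 207 ± 39.9 RPKM in wildtypes, well above Igfbp2 at 45.3 ± 4.10 RPKM and Ghr at 27.3 ± 2.74 RPKM, and these 3 ranges did not overlap one another. Igfbp3, which overlapped Ghr, came next, and Cish, Stat5b and Igfals followed. Igf1 at 6.10 ± 1.25 RPKM and Socs2 at 5.22 ± 1.16 RPKM overlapped, and Bcl6 was lowest at 1.09 ± 0.11 RPKM. At 2 weeks Igfbp2 led in wildtypes at 1155 ± 339 RPKM, clear of Igfbp1, Igf1 and Ghr, which overlapped with their neighbours in the order. Bcl6 was last in 2-week wildtypes at 1.72 ± 0.20 RPKM and Cish, at 15.4 ± 3.18 RPKM, was next to last. In 2-week knockouts the means of this pair changed places, with Bcl6 at 8.47 ± 5.46 RPKM and Cish at 6.13 ± 3.30 RPKM and overlapping ranges.

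**Figure D5:**
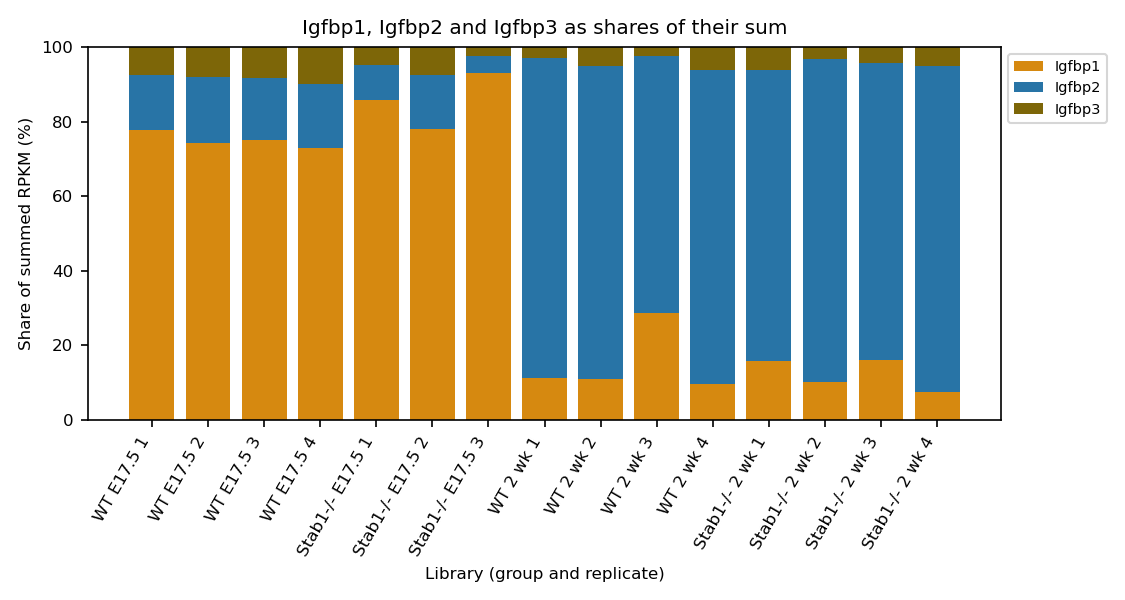
Igfbp1, Igfbp2 and Igfbp3 as percent of their summed RPKM in each of the 15 libraries, ordered by group and replicate. Igfbp1 takes 72.9% to 93.0% in E17.5 libraries and 7.32% to 28.6% in 2-week libraries, where Igfbp2 takes 68.9% to 87.6%.

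The mixture of Igfbp1, Igfbp2 and Igfbp3 showed the turnover most plainly. Igfbp1 made up 72.9% to 77.6% of the summed RPKM of Igfbp1, Igfbp2 and Igfbp3 in fetal wildtypes and 77.9% to 93.0% in fetal knockouts. At 2 weeks Igfbp2 made up 68.9% to 85.7% in wildtypes and 78.2% to 87.6% in knockouts. The highest Igfbp1 share at this age, 28.6%, belonged to wildtype replicate 3. The ratio of Igf1 to this sum was 0.00626 to 0.0319 in fetal libraries and 0.0672 to 0.296 at 2 weeks. Igfbp4, which is not in the sum and is named after its value was seen, averaged 231 RPKM in fetal wildtypes. In 2-week wildtypes Igfbp4 averaged 969 RPKM, so these shares and ratios do not describe all IGF binding proteins of the liver.

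Variation among libraries of one group also differed between the genes. At 2 weeks the coefficient of variation in knockouts was 6.34% for Stat5b, 9.65% for Igfbp3 and 11.5% for Ghr, but 64.7% for Socs2, 64.4% for Bcl6 and 53.9% for Cish. In 2-week wildtypes it was 11.5% for Bcl6 and 20.7% for Cish, while Socs2 stayed wide at 56.0% and Igfbp1 reached 92.4%. These spreads rest on 4 libraries each.

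The wider pathway was followed with 5 lists that exclude the 10 genes. Between genotypes, 0.936% of all tested genes were called higher and 1.74% lower at 2 weeks, and 0.366% were called at E17.5. Of 16 tested genes of growth hormone receptor signalling, which include the prolactin receptor Prlr, the kinases Jak2 and Tyk2 and further Socs genes, 0 were called between genotypes at 2 weeks by edgeR (0 to 1 over the alternatives), and at E17.5 0 of 17 were called. Of 16 tested IGF ligands, receptors and carriers at 2 weeks, 0 were higher and 2 lower. Igf2, the fetal growth factor, was 42.7 to 69.2 RPKM in knockouts and 323 to 514 RPKM in wildtypes (log2 fold change -3.12, edgeR adjusted p = 5.15e-06, called in 17 of 17 alternatives). Grb10, an adaptor that restrains insulin and IGF receptor signalling, had a log2 fold change of -0.46 (edgeR adjusted p = 0.0486, called in 7 of 17 alternatives). At E17.5 1 of 17 was higher, the receptor substrate Irs2 (log2 fold change 0.60, edgeR adjusted p = 0.0474, called in 5 of 16 alternatives).

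Genes whose adult liver expression follows the sex-specific growth hormone pattern were split by direction. Of 5 tested male-biased genes at 2 weeks, 1 was higher and 0 lower in knockouts: Hsd3b5, a steroid dehydrogenase, at 1.02 to 2.59 RPKM against 0.35 to 0.53 RPKM (log2 fold change 1.75, edgeR adjusted p = 0.0224, called in 14 of 17 alternatives). These levels are low, and the log2 fold change of Hsd3b5 ran from 0.81 to 1.89 over the alternatives. Of 10 tested female-biased genes, 1 was higher and 0 lower, against 0.936% and 1.74% of all tested genes. The called gene was the cytochrome Cyp2b13 (log2 fold change 0.80, edgeR adjusted p = 0.0358, called in 11 of 17 alternatives), and the list's median was -0.32. At E17.5 0 of 2 male-biased genes and 1 of 8 female-biased genes were called, against 0.366% of all tested genes. The gene called was Cyp2b9 (log2 fold change 0.97, edgeR adjusted p = 0.00952, called in 14 of 16 alternatives). Cyp2b genes resemble one another in sequence, and reads that fit several of them are not among uniquely mapped reads. The E17.5 libraries differed in Xist and Y-linked reads, and the part of this in the fetal values was not tested.

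Of 9 tested fasting and FOXO target genes, 0 were higher and 2 lower in 2-week knockouts, against 0.936% and 1.74% of all tested genes. The lower genes were the gluconeogenic enzymes Pck1 (log2 fold change -0.90, edgeR adjusted p = 0.0328) and G6pc (-0.82, adjusted p = 0.0455), each called in 8 of 17 alternatives. At E17.5 0 of 8 were called, against 0.366% of all tested genes.

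Between the stages 34.9% of all tested genes were higher and 37% lower in wildtype liver, and the counts of these lists stand against that background. In growth hormone receptor signalling 5 of 17 tested genes were higher at 2 weeks and 8 lower, with Prlr at 4.67, Jak2 at -1.45 and Socs4 at -1.36 on the log2 scale (edgeR adjusted p = 4.45e-07, 6.25e-08 and 1.48e-06). In the IGF list 8 of 17 were higher and 8 lower, with Grb10 at -3.74, Igf2bp1, an RNA-binding protein of fetal tissues, at -7.15 and the adaptor Grb14 at 2.28. Of the sex-biased lists 2 of 3 male-biased and 8 of 10 female-biased genes were higher and 0 lower. Of the fasting list 8 of 9 were higher and 1 lower, Foxo3 at -2.85. Y-linked sums were 13 to 2448 reads in fetal libraries and at most 2 reads at 2 weeks. In these stage comparisons, the sex-biased lists included, stage and sex makeup therefore cannot be told apart. In knockouts, where 35.7% of all tested genes were higher and 36.8% lower, the counts were 5 higher and 6 lower of 17, 6 higher and 9 lower of 17, 5 higher and 1 lower of 6, 6 higher and 0 lower of 9, and 7 higher and 2 lower of 9, in the same order of lists.

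The genes most like Igf1 and Bcl6 were found by the mean absolute difference of centred log2(RPKM + 0.1) over the 15 libraries, among 12042 genes. Nearest to Igf1 were Cyp3a11, a drug-metabolising cytochrome, at 0.172 and Ugt2b1, a glucuronosyltransferase, at 0.187, followed by Gpt at 0.222, Magix at 0.224 and Slc22a29 at 0.27, with a median of 2.62 over all genes. Cyp3a11 averaged 27.1 and 33.0 RPKM in fetal knockouts and wildtypes and 1219 and 910 RPKM at 2 weeks. Nearest to Bcl6 were Ifi44 at 0.284, Arrdc3 at 0.363, Nkiras1 at 0.408, Gm12250 at 0.439 and Fam174a at 0.446, with a median of 1.04 over all genes. Arrdc3, an arrestin domain protein, averaged 60.9 RPKM in 2-week knockouts and 25.1 RPKM in 2-week wildtypes. The points share their libraries, so these distances are descriptions.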

How the data were processed

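Total liver RNA was sequenced in 15 libraries. The authors deposited 1 table of whole-number read counts (uniquely mapped reads per gene), the percent coverage of each gene model, and RPKM, which they derived from those counts, gene length and library totals. Aligner, counting tool, genome build and strand use are not given in the sources used here. Groups and replicate numbers come from the sample titles, which do not state separate animals, so p-values measure the spread between these libraries. The members and lists were chosen with earlier results of these data known, so tests on the genes are no independent support for that choice.

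Counts were tested with edgeR 4.0.16 (R 4.3.3; TMM, filterByExpr with a minimum count of 10, quasi-likelihood test), two-sided, with Benjamini-Hochberg adjustment over all genes tested and a threshold of 0.05, separately for each comparison. Intervals are the estimate plus and minus 2 standard errors. Single RPKM values were compared with exact permutation tests (scipy 1.17.1). Alternatives were DESeq2 1.42.0, limma 3.58.1 on log2(RPKM + 0.1) or log2(RPKM + 1), median-of-ratios scaling, no filter, all 15 libraries in one fit, a replicate block, and leaving out each library. GC-content offsets, for the 92.7% of rows with a GC value, were chosen after seeing the data. The fits were tested on simulated counts. Named were all 10 members, and of each list at most the 3 called genes with the lowest p. Of 141 list genes 1 was not found and 3 were matched by gene ID. A further gene of the female-biased list is not reported here and was left out of that list's counts.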

Additional observations from a re-analysis of the deposited data

Results flagged for a closer look

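Among the 10 genes, Cish in wildtype E17.5 replicate 4 stood apart from its group, at 8.69 RPKM when the nearest other library was at 15.8 RPKM. The same library held 119 Xist reads, the fewest of any library. The part of this in its Cish value was not tested. Among the list genes named, Irs2 stood apart in 2-week knockout replicate 4, at 1.05 RPKM with the nearest at 2.07 RPKM. Of 60 groups of 4 examined, 2 held such a library, and chance flags about 1 in 20.

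The genotype effect differed between the ages for several pathway genes, by the edgeR interaction term over 15 libraries, given as the log2 fold change at E17.5 minus that at 2 weeks. It was 3.23 for Igf2 (edgeR adjusted p = 1.27e-06), 1.42 for Irs2 (0.018) and 1.14 for Cyp2b9 (0.015), each called in 23 of 23 alternatives. It was 1.82 for G6pc (0.0488, called in 7 of 23), 0.73 for Stat3 (0.0453, called in 9 of 23) and 0.68 for Grb10 (0.0322, called in 14 of 23). For the targeted gene Stab1 it was 1.24 (0.031, called in 14 of 23), the knockout level being 11.8% of wildtype at 2 weeks and 25.4% at E17.5.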

How the results depend on the processing

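At 2 weeks 2 members were called, and 3 with DESeq2, where Igfals also passed (adjusted p = 0.0289). The count was 1 with limma at a pseudocount of 0.1, 0 at a pseudocount of 1, and 1 to 2 when any 1 library was left out. For the difference between ages 0 were called, 2 with DESeq2, 1 with the replicate block (Bcl6, edgeR adjusted p = 0.0396), 1 with the replicate block and GC-content offsets (Bcl6, 0.0377), and 0 to 2 with 1 library left out. The counts at E17.5 (0) and between stages (8 in wildtype, 10 in Stab1-/-) stayed within 1.5 times.

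Small effects turned sign. Igfbp3 at 2 weeks, -0.08 in edgeR, was 0.01 with limma at either pseudocount (0.00838 and 0.00827) and 0.00209 with GC-content offsets. At E17.5 limma at pseudocounts 0.1 and 1 gave Igfbp2 -0.0215 and -0.0209, Igfbp3 -0.0159 and -0.0151, and Socs2 -0.0616 and -0.0484, and at 0.1 Bcl6 -0.0012. In the block fits at E17.5, without and with GC-content offsets, Igfbp2 was -0.0198 and -0.0114, Socs2 -0.126 and -0.166, and Cish -0.0644 and -0.0665. With block and offsets Ghr was -0.0106 and Bcl6 -0.0321, and with offsets alone Socs2 was -0.019. Igfbp1 between stages in wildtype was -0.119 and -0.117 with limma. For the difference between ages Ghr was 0.0184 with median-of-ratios scaling, 0.0181 with DESeq2 and 0.00844 with GC-content offsets, and Igfbp3 was -0.0243 and -0.0234 with limma.

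Leaving out 1 library at a time, the log2 fold change at 2 weeks was -1.16 to 0.0288 for Igfbp1 and -0.44 to 0.36 for Socs2. At E17.5 it was -0.13 to 0.27 for Bcl6, -0.0669 to 0.32 for Cish, -0.0436 to 0.25 for Igfals, -0.0749 to 0.14 for Igfbp2, -0.0786 to 0.16 for Igfbp3 and -0.14 to 0.26 for Socs2. Igfbp1 between stages in wildtype was -0.26 to 0.93. The difference between ages was -0.10 to 0.0835 for Ghr, -0.0519 to 0.20 for Igfbp3 and -0.36 to 0.48 for Socs2. The cause of these shifts was not tested.

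Whether replicate numbers pair the libraries is not stated by the labels and was not settled here. Deviations of same-numbered libraries correlated at 0.195, 0.015, 0.179 and 0.141 at 2 weeks and -0.001, -0.135 and -0.16 at E17.5. Those of different-numbered libraries ran from -0.252 to 0.278 at 2 weeks and from -0.1 to 0.272 at E17.5. The replicate block raised the calls over all genes at 2 weeks from 340 to 1181 and lowered those at E17.5 from 49 to 23, where wildtype replicate 4 had no partner, and it brought Igfals at 2 weeks past the threshold (edgeR adjusted p = 0.0186). Over all genes DESeq2 called 861 at 2 weeks and 235 at E17.5, and limma at 0.1 called 195 and 50. The share of calls that were higher was 35% with edgeR and 55.9% with limma at 2 weeks, 53.1% and 36% at E17.5, 49.2% and 38.5% between stages in knockouts, and 55.8% and 22.6% for the difference between ages. With 29 to 67 reads in E17.5 and 2-week wildtype libraries, Bcl6 was the least deeply counted gene of the set.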
